A study of Mus musculus with 4 samples.

Results

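Cycling myogenic progenitors are muscle precursor cells that carry both the transcription factors of the muscle lineage and the transcripts of a running cell cycle. Here they were the cells of the 4 libraries with 1000 to 5000 detected genes, at most 8% mitochondrial transcripts, 2 or more unique molecular identifiers (UMIs, counted transcript molecules) summed over Pax7, Myf5 and Myod1, at least 1 UMI of 3 or more of Mki67, Top2a, Cdk1, Ccna2, Birc5, Cenpf, Pbk and Hmmr, and fewer than 3 UMIs of Myog. The rule found 342 cells among 16883 myogenic cells (2.03%, exact binomial 95% interval 1.82 to 2.25), 20850 cells within the gene and mitochondrial limits and 27425 deposited barcodes. Because the cells were chosen by measured transcripts, the levels of those 12 genes, and every difference between the cycling cells and other cells of the same library, are given as a description.

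The cells came from lower hindlimb muscle and were sorted as Lin-, ITGA7+ and VCAM1+ satellite cells, the muscle stem cells, with the lineage gate set against Cd11b, Sca1, Cd45 and Cd31. B10 (strain labelled C57/Bl10ScsSn, 15 weeks old) is the healthy control of mdx (C57BL/10ScSn-Dmdmdx, 11 weeks), and DBA (DBA/2, 13 weeks) the healthy control of D2-mdx (D2.B10-Dmdmdx, 14 weeks). The mdx allele is a point mutation of Dmd that ends the dystrophin protein early in every cell of the animal, as in Duchenne muscular dystrophy (DMD), and no group received a treatment. Each strain is 1 library of 2 pooled mice made with 10X Genomics 3′ chemistry, so no difference between strains has a replicate, no test was made, and strain, age and library cannot be told apart. In total 49191944 UMIs were counted in the 9931 barcodes of B10, 67156373 in 7173 of mdx, 43542853 in 3539 of DBA and 75482888 in 6782 of D2-mdx. The limits on genes and mitochondrial transcripts kept 4762 B10 barcodes, 6669 mdx, 3370 DBA and 6049 D2-mdx barcodes, so that a larger part of B10 was left out than of the other libraries. Of the 27425 barcodes, 122 carried a sequence that another library also held, among them 1 of the 342 cycling cells.

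Satellite cells rest outside the cell cycle in healthy adult muscle, marked by Pax7. When a fibre is damaged they switch on Myod1, enter the cycle and divide as progenitors, and then either return to rest or leave the cycle for good with Myog and fuse. In the cycle, genes of DNA replication are transcribed from the end of G1 into S phase under E2F factors, and genes of mitosis in G2 and M under the DREAM and MuvB complexes with B-MYB and FOXM1, which read the CHR promoter element.

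Dmd, the gene mutated in both dystrophic strains, is read here from the 3′ end of its transcript, so its level does not check the allele. Levels are given in CPM, the UMIs of a gene summed over the cycling cells of a library per 1000000 UMIs of those cells, and where 4 levels follow each other they are in the order B10, mdx, DBA and D2-mdx. In the cycling cells Dmd (X chromosome, chrX:82948870-85206141, plus strand, build GRCm38) stood at 134 (B10), 35.5 (mdx), 118 (DBA) and 25.8 CPM (D2-mdx). Its level in non-cycling myogenic cells, those with none of the 8 proliferation genes and fewer than 3 Myog UMIs, was 327, 142, 295 and 126 CPM in the same order. Both dystrophic libraries were thus below both healthy ones in either class, and every library was lower in cycling than in non-cycling cells. Within the cycling cells the log2 ratio of Dmd was -1.91 (95% counting interval -2.93 to -0.71) for mdx over B10; relative to DBA, D2-mdx had -2.20 (-2.73 to -1.65). At least 1 Dmd UMI was found in all 4 cycling cells of B10, 30.7% of those of mdx, 75% of DBA and 26.3% of D2-mdx. The intervals given here cover counting error only, not the variation between mice or between cells.

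Cycling cells were more frequent in the dystrophic libraries than in their healthy controls, and more frequent in D2-mdx than in mdx. They made up 4 of 4611 myogenic cells in B10 (0.0867%, 0.0236 to 0.222), 101 of 5049 in mdx (2.00%, 1.63 to 2.43), 20 of 2857 in DBA (0.700%, 0.428 to 1.08) and 217 of 4366 in D2-mdx (4.97%, 4.34 to 5.66). No interval of a dystrophic library reached that of a healthy library, but these intervals count cells of 1 library each and leave out variation between mice. The share was 23.1-fold higher in mdx than in B10 (8.73 to 86.3), 7.10-fold higher in D2-mdx than in DBA (4.49 to 11.9) and 2.48-fold higher in D2-mdx than in mdx (1.95 to 3.18). The healthy strains also differed, DBA standing 8.07-fold above B10 (2.70 to 32.5), and B10 was itself the oldest and mdx the youngest of the groups. Over all cells within the limits in place of the myogenic cells, the shares were 0.0840%, 1.51%, 0.593% and 3.59% in the order B10, mdx, DBA and D2-mdx.

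**Figure D1:**
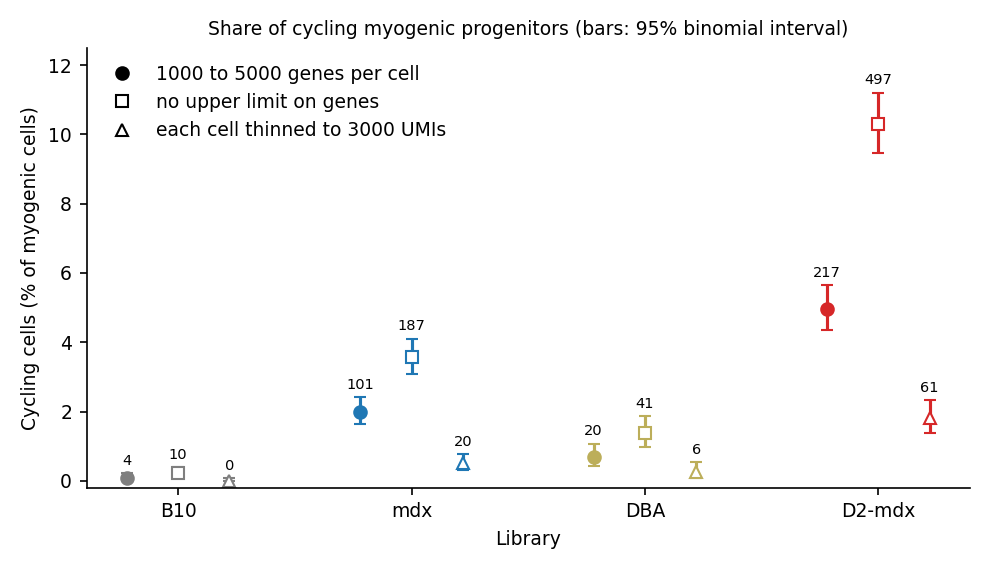
Share of cycling cells among myogenic cells (percent, vertical axis) in each library under 3 settings, the stated limits, no upper limit on genes, and every cell thinned to 3000 UMIs; points are shares, bars exact binomial 95% intervals and the numbers above them count cycling cells. D2-mdx is highest and B10 lowest under each setting, from 4.97% against 0.0867% under the stated limits to 10.3% against 0.215% without the upper limit.

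Cycling cells held more transcripts than non-cycling ones, so the depth of a cell bears on whether it met the rule. Their median depth in B10 was 16905.5 UMIs, that of mdx 15228, of DBA 19178 and of D2-mdx 15151, against 8411, 6741, 10306 and 6177.5 in non-cycling cells, a ratio of 2.01, 2.26, 1.86 and 2.45. The median number of genes was 4299.5, 3827, 4446 and 3784 in cycling cells and 2673, 2296, 3116 and 2202 in non-cycling cells. At an equal depth of 3000 UMIs a cell, 0 of 4164 B10 cells met the rule. The exact binomial upper limit of that share is 0.0886%, and a floor of 3 cells would stand at 0.0720%. Beside it, 20 of 3962 cells met the rule in mdx (0.505%), 6 of 2405 in DBA (0.249%) and 61 of 3359 in D2-mdx (1.82%). The order of the libraries was the same as without thinning. At that depth the share was 7.28-fold higher in D2-mdx than in DBA (3.16 to 20.6) and 3.60-fold higher in D2-mdx than in mdx (2.14 to 6.29), and with no B10 cell left no fold over B10 is given. Thinning left out 45 shallower B10 cells, none of them cycling, and no cell of the other libraries.

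The upper limit of 5000 genes, which is that of the study, took away more cycling cells than it kept. Without it 735 cells met the rest of the rule, and 393 of them (53.5%, 49.8 to 57.1) had more than 5000 genes. B10 had 6 of these cells, mdx 86, DBA 21 and D2-mdx 280, so that the shares without the limit were 0.215%, 3.57%, 1.38% and 10.3%. The fold between D2-mdx and DBA was then 7.48 (5.43 to 10.5), that between mdx and B10 16.6 (8.82 to 35.2), and that between D2-mdx and mdx 2.89 (2.44 to 3.44). Among myogenic cells of more than 5000 genes, 15.8% of B10, 45.3% of mdx, 18.1% of DBA and 61.7% of D2-mdx were cycling. Scrublet, which scores cells that resemble a sum of 2 cells, marked 0, 4, 0 and 17 of the cycling cells within the limits (0%, 3.96%, 0% and 7.83%) and 3.86%, 6.16%, 3.14% and 4.93% of the non-cycling ones. Without the upper limit it marked 10.7% of the cycling cells of D2-mdx.

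Cells just outside the rule shaded into it. With 2 of the 8 genes there were 148 cells, whose S-phase genes summed to 1962 CPM and G2/M genes to 1113, and with 3 genes 64 cells at 2199 and 2242 CPM. The 72 cells with all 8 genes stood at 5372 and 13572 CPM. Of the cells with 3 or more of the 8 genes that met the other limits, 303 had no Myog UMI, 33 had 1 and 6 had 2, and just outside the limit 1 cell had 3 and 1 had 4. Just inside the myogenic limit 33 cells had 2 UMIs of Pax7, Myf5 and Myod1 together, and just outside it 44 had 1 and 60 had none. Cells with 3 or more Myog UMIs carried 3 or more of the 8 genes in 0 of 9 in B10, 5 of 200 in mdx (2.5%), 0 of 21 in DBA and 30 of 226 in D2-mdx (13.3%). All Myog-high cells had a median depth of 14842.5 UMIs in mdx and 13162.5 in D2-mdx, near that of the cycling cells.

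B10 rested on 4 cells, and these differed from each other. The first had 17294 UMIs, 6 of the 8 genes, 4 Pax7, 2 Myod1 and 1 Myog UMI, and 180 UMIs of S-phase genes beside 72 of G2/M genes. In the second, of 12837 UMIs, the counts were 138 and 27, with 5 Pax7 UMIs and none of Myod1. The third had all 8 genes, 55 Mki67 and 58 Top2a UMIs, 10 of Pax7, and 223 S-phase and 413 G2/M UMIs. The last met the rule with 7 Mki67 UMIs and 1 each of Cenpf and Hmmr, had 11 S-phase and 49 G2/M UMIs, and held 12 of the 16 Myod1 UMIs of the 4 cells. A single UMI in B10 corresponds to 14.8 CPM, whereas 1633569 UMIs were summed over the cycling cells of mdx, 379806 over those of DBA and 3452493 over those of D2-mdx. Every B10 level and every ratio of mdx over B10 below is therefore that of a few cells.

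Of the transcripts that chose the cells, Mki67, which coats mitotic chromosomes, stood at 1024 (B10), 367 (mdx), 708 (DBA) and 368 CPM (D2-mdx). Top2a, the topoisomerase that disentangles replicated DNA, stood at 1098, 344, 719 and 379 CPM in the same order, and Cenpf, a kinetochore protein, at 549, 402, 545 and 408. Cdk1, the kinase that drives mitosis, had 341, 141, 189.6 and 133 CPM and its partner Ccna2 (cyclin A2) 208, 123, 153 and 151. The healthy libraries were higher than the dystrophic ones for Mki67, Top2a and Cdk1, but in B10 this rests on 1 cell, which held 55 of 69 Mki67, 58 of 74 Top2a and 19 of 23 Cdk1 UMIs. Without that cell Mki67 stood at 300.1 CPM in B10, below both dystrophic libraries. Non-cycling cells had 0 UMIs of these genes by definition.

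Beyond the 8 genes of the rule, the genes of replication and of mitosis were higher in cycling than in non-cycling cells of each library. Counts below are of genes with a mean of at least 50 CPM over the 8 sums of cycling and non-cycling cells, a minimum that many cell cycle genes passed through the cycling cells, and a 2-fold difference in each of the 4 libraries. Among all 3005 genes over this minimum, 160 (5.32%) were at least 2-fold higher in cycling cells in all 4 libraries and 74 (2.46%) at least 2-fold lower. Of 55 S-phase genes 27 passed the minimum, and 25 of these were 2-fold higher. Of 68 G2/M genes 30 passed, and 28 were 2-fold higher; no gene of either list was lower. Since the rule made this contrast, the counts describe the cells chosen and were not tested against these shares of all genes.

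Among replication genes, Pcna, the sliding clamp of the polymerases, stood at 504 (B10), 102 (mdx), 271 (DBA) and 88.6 CPM (D2-mdx) in cycling cells and at 33.6, 19, 32.9 and 21.9 CPM in non-cycling cells. Mcm6, a subunit of the replicative helicase, had 252, 120.0, 158 and 107 CPM and Mcm5, another subunit, 163, 64.9, 108 and 71.3. Rrm2, which makes deoxyribonucleotides, stood at 252, 217, 174 and 235 CPM against 3.58, 13.0, 1.64 and 7.36, and Uhrf1, which keeps DNA methylation through replication, at 178, 74.1, 150.1 and 81.4 against 0.412, 1.72, 0.267 and 2.06. Every S-phase gene named here was at least 2-fold higher in the cycling cells of each library, and Pcna, Mcm6, Mcm5 and Uhrf1 were higher in the healthy than in the dystrophic cycling cells. Among mitotic genes, Ccnb2 (cyclin B2) stood at 252, 277, 195 and 198 CPM and Ube2c, which directs cyclins to destruction, at 178, 281, 171 and 272. Prc1, which bundles the midzone of the spindle, had 356, 183, 489.7 and 248 CPM, and Cenpa, the histone of the centromere, 74.2, 329, 237 and 278. Pttg1 (securin, which holds sister chromatids until anaphase) stood at 29.7, 197, 55.3 and 143 CPM, higher in both dystrophic libraries, while Prc1 was higher in both healthy ones.

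The promoters of these genes are shown because they carry the elements that are known to read out both programmes, and they were picked as examples of either. The 150 bases before the start were taken from RefSeq on GRCm38.p6, 5′ to 3′ on the strand of the gene, for Cdk1 (minus strand, chr10:69352939-69353088, ending 26 bases before the RefSeq start), Top2a (minus, chr11:99024190-99024339), Mki67 (minus, chr7:135716380-135716529), Mcm6 (minus, chr1:128359706-128359855) and Mcm5 (plus, chr8:75109359-75109508), none overlapping an annotated exon. Capitals mark TTTGAA, the core of the CHR element, TTTGGCGC or TTTCCCGC, which E2F factors read, and CCAAT, the site of NF-Y, on either strand, so that TTCAAA, GCGCCAAA, GCGGGAAA and ATTGG are the same elements reversed.
Cdk1: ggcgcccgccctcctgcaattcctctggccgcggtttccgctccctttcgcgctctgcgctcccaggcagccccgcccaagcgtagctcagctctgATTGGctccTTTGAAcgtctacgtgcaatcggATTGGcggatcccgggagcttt
Top2a: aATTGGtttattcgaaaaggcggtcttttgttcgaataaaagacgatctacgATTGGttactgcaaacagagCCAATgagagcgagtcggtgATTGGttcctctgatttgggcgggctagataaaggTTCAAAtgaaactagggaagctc
Mki67: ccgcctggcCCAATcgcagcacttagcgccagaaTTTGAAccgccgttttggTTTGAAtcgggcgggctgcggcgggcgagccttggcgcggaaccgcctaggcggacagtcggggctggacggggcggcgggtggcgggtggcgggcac
Mcm6: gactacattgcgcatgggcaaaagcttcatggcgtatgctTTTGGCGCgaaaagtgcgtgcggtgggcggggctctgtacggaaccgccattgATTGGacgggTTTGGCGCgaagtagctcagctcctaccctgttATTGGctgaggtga
Mcm5: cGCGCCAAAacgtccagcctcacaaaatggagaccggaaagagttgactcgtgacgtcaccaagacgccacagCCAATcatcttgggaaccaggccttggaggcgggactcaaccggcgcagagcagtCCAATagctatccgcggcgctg

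Between 250 bases before and 50 after the start, TTTGAA was found in 42 of the 57 G2/M genes with a promoter in the table (73.7%), in 8 of 44 S-phase genes (18.2%) and in 20.2% of all 27025 genes. TTTCCCGC or TTTGGCGC was found in 17 of 44 S-phase genes (38.6%), 6 of 57 G2/M genes (10.5%) and 1.80% of all genes. CCAAT was present in 61.4% of the S-phase and 75.4% of the G2/M genes, beside 41.1% of all genes. Among the promoters printed, TTTGAA stands in Cdk1, Top2a and Mki67, whose protein products act in mitosis, and TTTGGCGC in both helicase subunits. A match is a description of letters and not evidence of binding, and both lists were chosen with earlier results of these data known.

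The balance of S-phase and G2/M transcripts is given as a description, since the 8 genes that chose the cells are mostly genes of G2 and mitosis and the G2/M sum rose with the number of them found, as the values by number of genes show. The ratio of S-phase to G2/M UMIs, without the genes of the rule, was 0.984 in the cycling cells of B10 (0.873 to 1.11), 0.505 in mdx (0.490 to 0.520), 0.650 in DBA (0.615 to 0.686) and 0.557 in D2-mdx (0.546 to 0.568). Each dystrophic library stood below its healthy control, and B10 was the mean of cells on both sides of 1. Non-cycling cells, whose counts of these genes were low, had 1.09, 1.15, 1.18 and 1.02. In cycling cells of more than 5000 genes the ratio was 1.21, 0.686, 0.431 and 0.632, so the order of DBA and the dystrophic libraries turned with the limit on genes. Cells thinned to 3000 UMIs had more G2/M than S-phase UMIs in 50% of cycling cells of B10, 71.3% of mdx, 60% of DBA and 68.2% of D2-mdx. No phase was assigned to single cells.

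**Figure D2:**
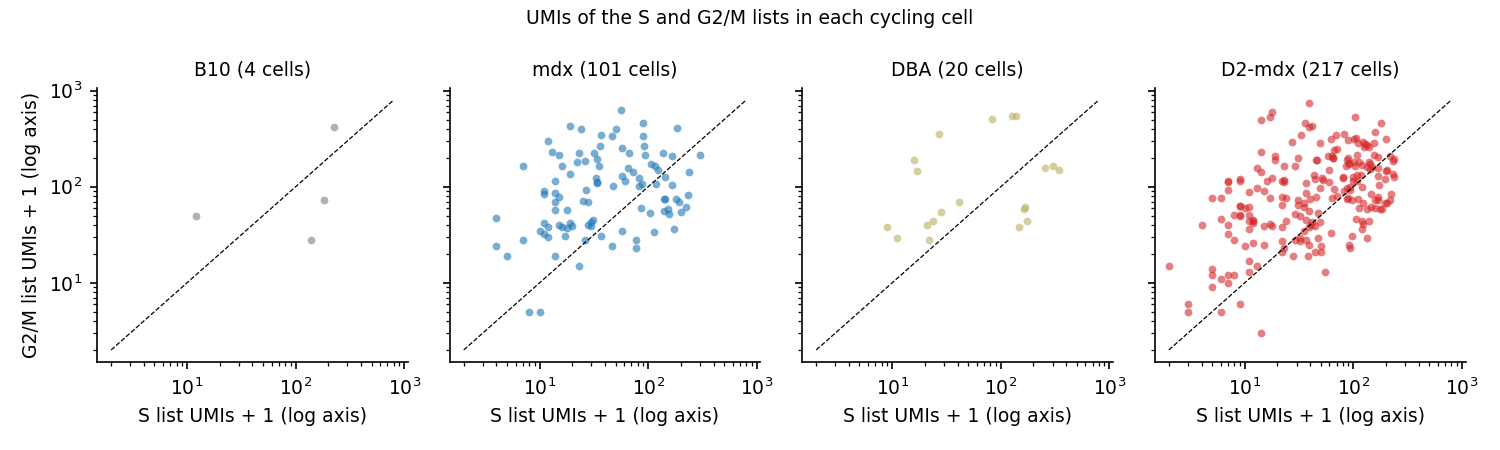
UMIs of the S-phase list (horizontal) and of the G2/M list (vertical) in each cycling cell, each plus 1 on log axes, with 1 panel a library; the dashed line marks equal counts. The cells spread over both sides of the line in every library, with more of them above it in mdx, DBA and D2-mdx, and B10 shows its 4 cells, 2 on each side.

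Histones and chromatin proteins formed another group that was higher in cycling cells. Of 16 such genes 12 passed the minimum and 7 were 2-fold higher in all libraries, beside 5.32% of all genes. H2afz, a histone variant, stood at 3457 (B10), 2335 (mdx), 2059 (DBA) and 2498 CPM (D2-mdx) in cycling cells beside 205, 255, 205 and 306 CPM in non-cycling cells, and Hmgb2, a chromatin protein of dividing cells, at 623, 862, 1135 and 807 beside 55.2, 54.0, 42.9 and 55.5. Hist1h2ap, a histone made in S phase, had 1691, 171, 929 and 137 CPM, higher in the healthy than in the dystrophic cycling cells. The replication-dependent histones are near-identical copies whose transcripts mostly lack a poly(A) tail, so 3′ counts of single copies are uncertain. Among the leading genes outside the cell cycle lists, besides Hist1h3c, Hist1h2ak and Hist1h2ab, were Lockd, an RNA transcribed beside Cdkn1b, at 223, 111, 113 and 67.8 CPM, Lmnb1 (lamin B1 of the nuclear envelope) at 208, 228, 226 and 203, Hmgb3 at 134, 184, 150.1 and 227, Hn1 at 163, 278, 208 and 339.8 and Ddx39, an RNA helicase of mRNA export, at 89.0, 121, 116 and 186. Lmnb1, Hmgb3, Hn1 and Ddx39 differed by less than 2-fold between each dystrophic library and its control.

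The cytoskeleton and DNA repair followed. Of 16 tubulin, actin and Ran genes, 16 passed the minimum and 8 were 2-fold higher in cycling cells, beside 5.32% of all genes. Stmn1 (stathmin, which takes apart microtubules) stood at 1988 (B10), 1298 (mdx), 824 (DBA) and 744 CPM (D2-mdx) in cycling cells and at 5.79, 41.8, 6.68 and 31.8 CPM in non-cycling cells. Tubb5, a beta-tubulin, had 1632, 1410.4, 1359 and 1356 CPM beside 152, 309, 166 and 339, and Tuba1b, an alpha-tubulin, 1320.4, 678, 1001 and 794 beside 242, 144, 208 and 183. Of 24 DNA repair genes only 4 passed the minimum, and these 4 (Rad51ap1, H2afx, Tipin and Topbp1) were higher, Topbp1, a scaffold of the replication checkpoint, at 193, 60, 108 and 78.2 CPM. Ribosome biogenesis was higher by less, with 0 of 17 genes 2-fold apart in all libraries and 15 of 17 on the higher side in each. Ncl (nucleolin) had 1469, 969, 1182 and 1430.0 CPM beside 739.7, 645, 799 and 629, and Eif5a, a translation factor, 475, 1001, 687 and 1504 beside 291, 445, 316 and 505. Glycolysis had 2 of 10 genes that were 2-fold higher in all libraries, Eno1 (enolase) at 237, 378, 287 and 498 CPM beside 80.5, 118, 88.5 and 115 and Pgam1, and oxidative phosphorylation 1 of 24, Cycs (cytochrome c) at 252, 389, 305 and 619.8 beside 104, 125, 100.1 and 137, with none lower. Of 16 matrix and DMD genes the 1 that was higher in all libraries was Lgals1 (galectin 1), at 3709, 5271, 3870.4 and 6287 CPM beside 1072, 1311, 848 and 1385. The counts of oxidative phosphorylation and of the matrix list were near the 5.32% of all genes, and that of glycolysis is 2 genes.

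Many of the genes lower in cycling cells belong to the immediate early response, which tissue dissociation is known to induce. Of 18 immediate early genes over the minimum 15 were 2-fold lower in cycling cells in all 4 libraries, beside 2.46% of all genes. Their list summed to 8278, 9664, 9926 and 8663 CPM in cycling cells against 43737, 38121, 35131 and 44349 in non-cycling cells. Fos, a subunit of the AP-1 factor, stood at 2537 (B10), 1986 (mdx), 2125 (DBA) and 2007 CPM (D2-mdx) in cycling cells and at 8843, 8966, 7103 and 11256 CPM in non-cycling cells. Jun, its partner, had 1379.7, 1881, 1825 and 1607 against 7798, 7053, 7897 and 8432 CPM, and Egr1, an early growth response factor, 1113, 1062, 1266 and 749 against 6407, 3880.1, 4218 and 3943. These values are relative to a larger total in cycling cells, so counts per cell are given beside them. A cycling cell held 42.8, 32.1, 40.4 and 31.9 Fos UMIs on average and a non-cycling cell 79.4, 71.5, 79.3 and 82.9, so Fos was also lower per cell. Jun had 23.2, 30.4, 34.6 and 25.6 UMIs in a cycling cell against 70.0, 56.3, 88.2 and 62.1. The heat shock genes Hspa1a and Hspa1b were 2-fold lower as well, Hspa1a at 74.2, 547, 345 and 404 CPM against 2494, 2521, 2021 and 1816, and with Dnajb1 they made up the 3 of 13 heat shock genes that were lower in all libraries. Without the upper limit on genes, Hspa1a, Hspa1b and Jun were no longer 2-fold lower in every library, the log2 ratio nearest 0 being -0.85, -0.93 and -0.96.

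Among the genes of rest and of the satellite cell surface, 27 of 31 passed the minimum, 3 were 2-fold lower in cycling cells of all libraries (Gpx3, Nppc and Igfbp4) and none was higher. Of all genes 2.46% were lower and 5.32% higher in all libraries. Gpx3, a glutathione peroxidase of resting satellite cells, stood at 178 (B10), 96.7 (mdx), 311 (DBA) and 108 CPM (D2-mdx) in cycling cells and at 1729, 793, 1405 and 781 CPM in non-cycling cells, and fewer of its UMIs were found per cell, 3, 1.56, 5.90 and 1.72 against 15.5, 6.33, 15.7 and 5.75. Nppc, a natriuretic peptide, had 445, 27.5, 648 and 74.4 CPM against 1485, 362, 2059 and 793, and Igfbp4, which binds insulin-like growth factors, 14.8, 30.6, 134 and 34.8 against 145, 85.4, 312 and 115. Calcr, the calcitonin receptor that keeps satellite cells at rest, had 59.3, 12.2, 39.5 and 9.85 against 92.2, 62.6, 71.5 and 48.9 CPM. In DBA 1 cycling cell held 9 of the 15 Calcr UMIs, and without it the level was 16.6 CPM. Per cell, Calcr had 1, 0.198, 0.75 and 0.157 UMIs against 0.828, 0.499, 0.799 and 0.360, so B10 was not lower by this count. Of the antigens of the sort, Itga7 was near the level of non-cycling cells, at 59.3, 80.8, 86.9 and 77.6 CPM against 62.0, 80.5, 80.5 and 71.8, and Vcam1 below it, at 252, 380.1, 287 and 299 against 393, 615, 353 and 610.2. Per cell both were higher in cycling cells, Itga7 with 1, 1.31, 1.65 and 1.24 UMIs against 0.557, 0.642, 0.899 and 0.529 and Vcam1 with 4.25, 6.15, 5.45 and 4.75 against 3.53, 4.90, 3.95 and 4.49. The other leading genes on the lower side were Clmn, Tgfbr3, a coreceptor of TGF-beta, Hsd11b1, which activates glucocorticoids, Gadd45a, Zfp36, which destabilises mRNA, Klf4, Junb and Fosb.

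**Figure D3:**
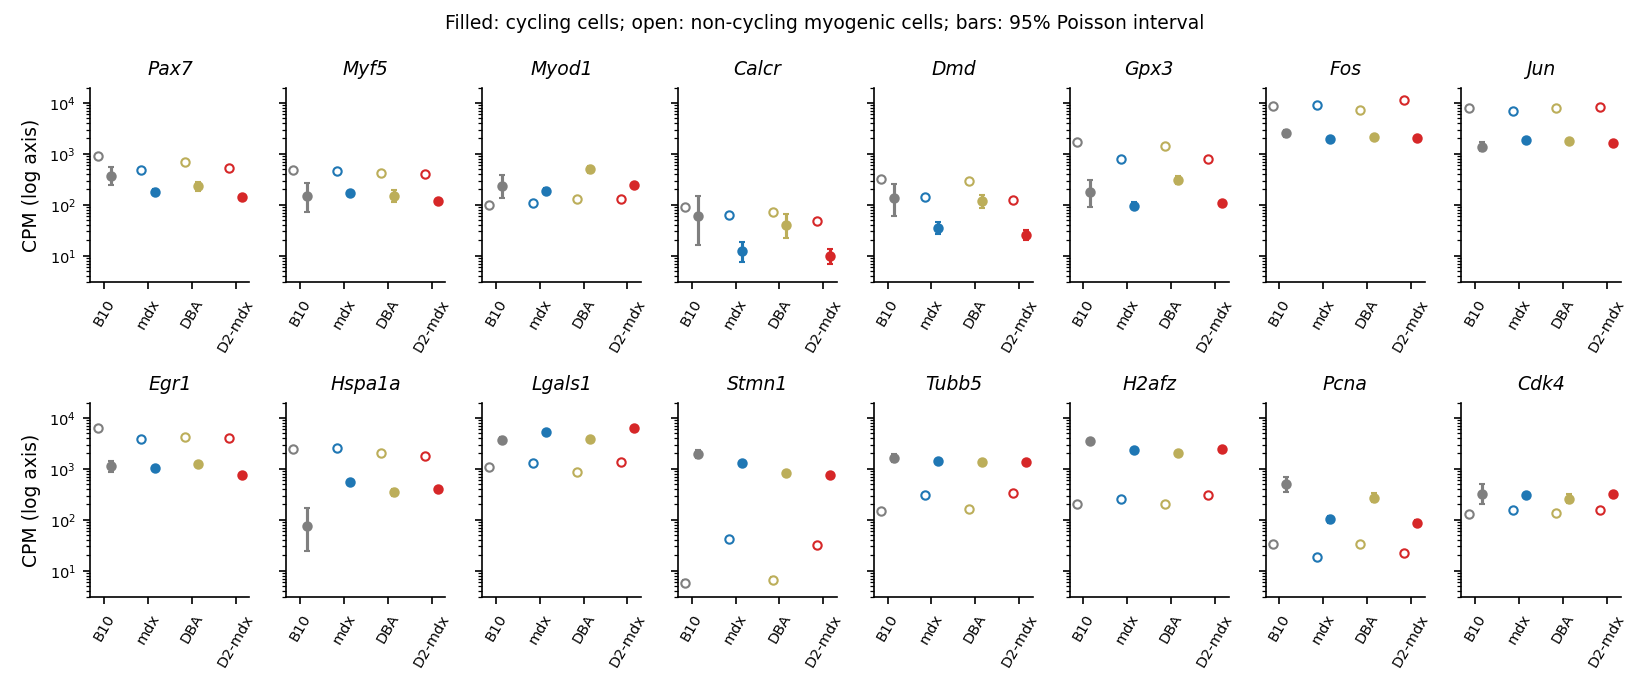
Level of 16 genes in CPM (log axis, the same in each panel) in cycling cells (filled) and non-cycling myogenic cells (open) of B10, mdx, DBA and D2-mdx, with 95% Poisson intervals as bars. Stmn1, Tubb5, H2afz and Pcna are higher and Fos, Jun, Egr1, Gpx3 and Pax7 lower in the cycling cells of every library, while Dmd and Calcr are lowest in mdx and D2-mdx, for Dmd at 35.5 and 25.8 CPM.

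The transcription factors that define the lineage differed between the classes, although the rule used their sum. Pax7 stood at 371 (B10), 181 (mdx), 232 (DBA) and 142 CPM (D2-mdx) in cycling cells against 922, 480.1, 692 and 528 CPM in non-cycling cells, and Myf5 at 148, 168, 150.1 and 119 against 475, 463, 422 and 399. Myod1, which commits satellite cells to muscle, went the other way, at 237, 189, 495 and 244 CPM against 101, 106, 131 and 132, and a cycling cell held 4, 3.05, 9.40 and 3.88 of its UMIs on average against 0.910, 0.847, 1.46 and 0.974. In B10 1 cell held 12 of the 16 Myod1 UMIs, and without it the level was 78.6 CPM, below that of its non-cycling cells. Within the limits the highest Myod1 level was that of DBA, at 495 CPM (95% interval 427 to 571), above the intervals of the other libraries. Of the 188 Myod1 UMIs of DBA, 1 cell held 43, and without that cell the level was 413 CPM. In cycling cells of more than 5000 genes, however, DBA was lowest, at 199 CPM beside 297 (B10), 234 (mdx) and 262 (D2-mdx). Of all genes 2.46% were 2-fold lower in cycling cells of all libraries. Of 15 genes of the myogenic factor list over the minimum, 2 (Pax7 and Myf5) were 2-fold lower in cycling cells of all libraries by CPM, and none higher. Per cell the difference was smaller and under 2-fold in each library, with 6.25, 2.92, 4.40 and 2.26 Pax7 UMIs in a cycling and 8.28, 3.83, 7.73 and 3.89 in a non-cycling cell, and 2.50, 2.72, 2.85 and 1.89 against 4.27, 3.69, 4.71 and 2.94 of Myf5.

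By their UMIs the cycling cells fell into cells with Pax7 only, with Pax7 and Myod1, and with Myod1 only. In mdx these were 34.7%, 44.6% and 16.8% of the 101 cells, and in D2-mdx 20.3%, 52.1% and 25.8% of the 217. In DBA 1, 17 and 1 of the 20 cells, and in B10 1, 3 and 0 of the 4, fell into these classes. The non-cycling cells of mdx had 67.8%, 25.2% and 2.74%, and those of D2-mdx 66.8%, 27.0% and 3.04%. Since deeper cells show more genes, the classes were also counted at 3000 UMIs a cell. Pax7 without Myod1 was then found in 20.8% of cycling and 60.7% of non-cycling cells of mdx, and in 19.8% and 63.8% of D2-mdx. Myod1 without Pax7 was found in 16.8% and 5.25% in mdx, 30.4% and 5.33% in D2-mdx, and 35% and 4.63% in DBA. At this depth the share with Myod1 alone was higher in cycling cells of mdx, D2-mdx and DBA. In B10 it was 0 of 4 cycling cells against 2.17% of non-cycling cells. Both genes belong to the rule and no test was made, so these shares are a description. No cell type free of both genes could serve as a background, because cells below 2 myogenic UMIs were set apart by these very genes. Across all of them, 1 or 2 Myog UMIs were found in 8 cycling cells of mdx (7.92%), 30 of D2-mdx (13.8%), 1 of B10 and 0 of DBA.

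The inhibitors of the cycle were not uniformly low in cycling cells. Cdkn1c (p57, chr7), an imprinted CDK inhibitor, had 0 UMIs in the 4 cells of B10, 268 (mdx), 55.3 (DBA) and 82.0 CPM (D2-mdx), beside 21.3, 463, 21.4 and 161 CPM in non-cycling cells. In DBA 1 cell held 17 of the 21 Cdkn1c UMIs, and without it the level was 11.0 CPM, below that of its non-cycling cells. In mdx its level in cycling cells was 483 CPM where Pax7 was found without Myod1 (428 to 544), 204 where both were found (172 to 239) and 37.0 where Myod1 was found alone (17.7 to 68.1). D2-mdx had 157, 85.9 and 21.0 CPM. The order was the same in both dystrophic libraries, and Cdkn1c UMIs were present in 22 of 35 cells of the first class in mdx, the highest of which held 63. In the cycling cells of more than 5000 genes, which the limits leave out, Cdkn1c had 52.4 CPM in mdx and 40.2 in D2-mdx. Postn (periostin, a matrix protein) followed the same order, at 295, 130.4 and 25.9 CPM in mdx and 108, 44.4 and 18.9 in D2-mdx. Ccnd1 (cyclin D1, which starts the cycle) ran against it, at 116, 473 and 677 CPM in mdx and 301, 648 and 676 in D2-mdx. In non-cycling cells the classes stood in the same order for Cdkn1c, at 576, 242 and 149 CPM in mdx and 171, 156 and 73.7 in D2-mdx, and for Ccnd1, at 111, 280.0 and 365 and 246, 483 and 709, so these orders are not particular to cycling cells. Postn had 147, 103 and 74.5 CPM in non-cycling cells of mdx and ran the opposite way in D2-mdx, at 85.7, 106 and 266. These classes were formed after earlier results were known and from genes of the rule, so their differences are a description.

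**Figure D4:**
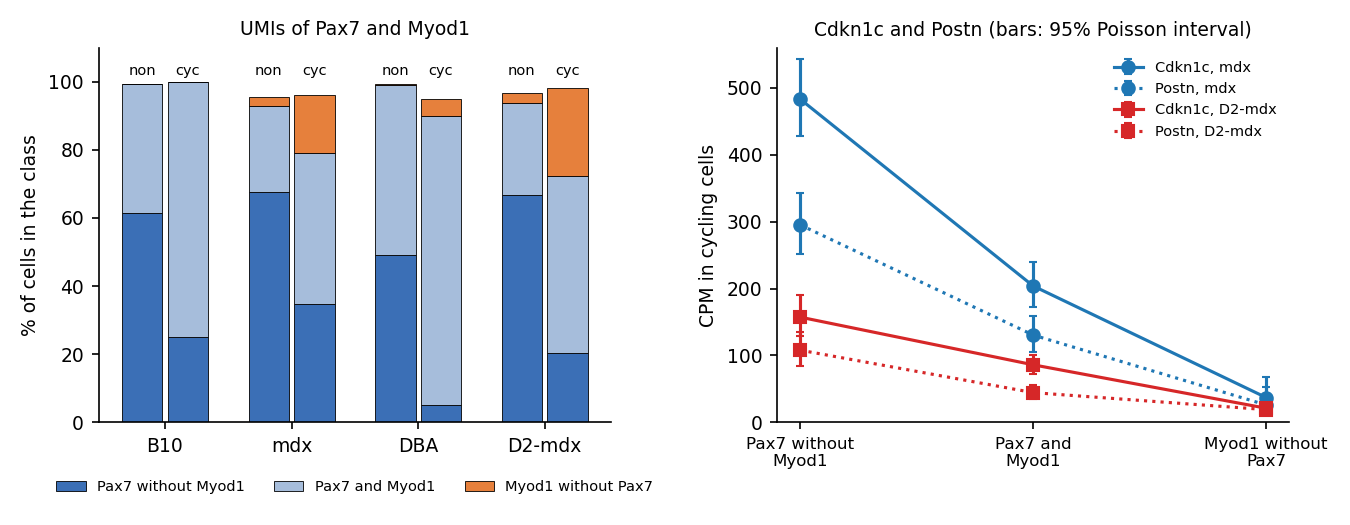
Left, percent of non-cycling (non) and cycling (cyc) myogenic cells of each library with UMIs of Pax7 without Myod1, of both, and of Myod1 without Pax7; bars stop below 100 because cells with Myf5 UMIs alone are not drawn. Right, Cdkn1c and Postn in CPM with 95% Poisson intervals over these classes of cycling cells in mdx and D2-mdx, falling from 483 to 37.0 CPM for Cdkn1c in mdx and from 157 to 21.0 in D2-mdx.

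Cdkn1a (p21), the inhibitor that p53 induces, stood at 282 (B10), 152 (mdx), 216 (DBA) and 204 CPM (D2-mdx) in cycling cells beside 37.8, 164, 44.7 and 166 CPM in non-cycling cells. The healthy libraries had more of it in cycling than in non-cycling cells, while the classes stood closer together in both dystrophic libraries. Cdkn2a, which encodes p16 and p19ARF, had 14.8, 108, 18.4 and 126 CPM in cycling cells and 1.03, 65.7, 2.07 and 91.7 in non-cycling cells, a difference between strains in either class. Cdkn1b (p27) stood at 44.5, 67.3, 92.2 and 39.7 CPM against 105, 109, 102 and 81.5. Of the 6 inhibitors over the minimum, none was 2-fold apart between the classes in all 4 libraries. The same held for the 5 cyclin and E2F genes of G1 over the minimum, among them Ccnd1 at 445, 384, 484 and 585 against 254, 163, 378 and 337 CPM and Cdk4, its kinase, at 326, 309.8, 258 and 322 against 132, 156, 138 and 157, both higher in cycling cells of each library. Most of the 25 genes of that list lay below the minimum; Ccne1 and Ccne2 (cyclins E), which fire replication, had 14.8, 30.6, 81.6 and 39.7 and 208, 44.1, 63.2 and 35.6 CPM.

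Cycling cells of dystrophic and healthy muscle were then set against each other. Over 3067 genes with a mean of at least 50 CPM over the cycling cells of the 4 libraries, 326 (10.6%) were at least 2-fold higher and 520 (17.0%) at least 2-fold lower in mdx than in B10. In D2-mdx against DBA 129 (4.21%) were higher and 245 (7.99%) lower, and in D2-mdx against mdx 24 (0.783%) and 36 (1.17%). A gene could pass the minimum through the libraries where it is high, so the filter bears on all these counts. B10 has 4 cycling cells, and where the 95% counting interval also had to lie on 1 side of no difference, 176 genes were higher and 403 lower in mdx than in B10, while the counts for D2-mdx over DBA and over mdx did not move. The split into higher and lower depended on the scaling. With library sizes by the TMM method it was 618 higher and 261 lower for mdx over B10 and 198 and 178 for D2-mdx over DBA, and with DESeq2 size factors 634 and 252, and 214 and 161; for D2-mdx over mdx it was 35 and 25, and 32 and 27. The median log2 ratio of all these genes was -0.15 for mdx over B10 with total UMIs and 0.26 with TMM, and -0.05 and 0.10 for D2-mdx over DBA, so ratios no further from 0 than these shifts have no direction of their own. D2-mdx over mdx shares a library with each of the other comparisons.

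The genes higher in both dystrophic libraries were led by matrix and S100 genes, some of them absent from the 4 B10 cells. S100a6, a calcium-binding protein, stood at 148 (B10), 3306 (mdx), 492 (DBA) and 2841 CPM (D2-mdx), with a log2 ratio of 4.48 (95% counting interval 3.60 to 5.54) for mdx over B10; relative to DBA, D2-mdx had 2.53 (2.32 to 2.75). Spp1 (osteopontin) had 0 UMIs in B10, 373 (mdx), 13.2 (DBA) and 490.1 CPM (D2-mdx), so that its log2 ratio was at least 3.07 for mdx over B10, from a floor of 3 UMIs, and 5.22 (3.99 to 6.84) in D2-mdx relative to DBA, whose level is 5 UMIs of 1 cell. Without the upper limit on genes the log2 ratio for D2-mdx over DBA was 2.29 for Spp1 and 1.70 for S100a6. Within either dystrophic library Spp1 was also higher in cycling than in non-cycling cells, which had 28.4 and 92.1 CPM. Ttn (titin) stood at 14.8, 252, 10.5 and 243 CPM, which is 1 UMI in B10 and 4 in DBA, and Lgals3 (galectin 3) at 0, 318, 92.2 and 784. In DBA 1 cell held 21 of the 35 Lgals3 UMIs, and without it the level was 38.0 CPM. Collagen I was higher too, Col1a2 at 0, 705, 29.0 and 344 CPM and Col1a1 at 14.8, 181, 7.90 and 82.5, but without the upper limit on genes the log2 ratio of Col1a1 for D2-mdx over DBA was 0.31 in place of 3.39. Postn, with 0 UMIs in both healthy libraries, stood at 166 and 50.4 CPM. The remaining leaders were Cdkn2a, Gadd45g, S100a4, Eno3, a muscle enolase, and Vamp5, whose interval for mdx over B10 crossed 0. Of 15 genes of the matrix and DMD list over the minimum, 8 were higher (of all genes 10.6% and 4.21%) and 1, Col3a1, lower in each comparison with a control, with a median log2 ratio of 1.47 and 1.32. Members such as Postn passed the minimum only through the dystrophic libraries, where they are high, so the filter bears on this count. The list was also drawn from earlier results of these libraries and is no independent evidence. Col3a1 (collagen III) had 1439, 672, 1069 and 531 CPM, whereas Anxa1 (annexin A1) stood at 163, 477, 94.8 and 652 and S100a11 at 223, 796, 221 and 718. In non-cycling cells 137 genes were 2-fold higher and 61 lower in mdx, and 59 and 50 of them in the same direction in cycling cells, while D2-mdx over DBA had 171 and 54, with 62 and 47 in both classes.

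**Figure D5:**
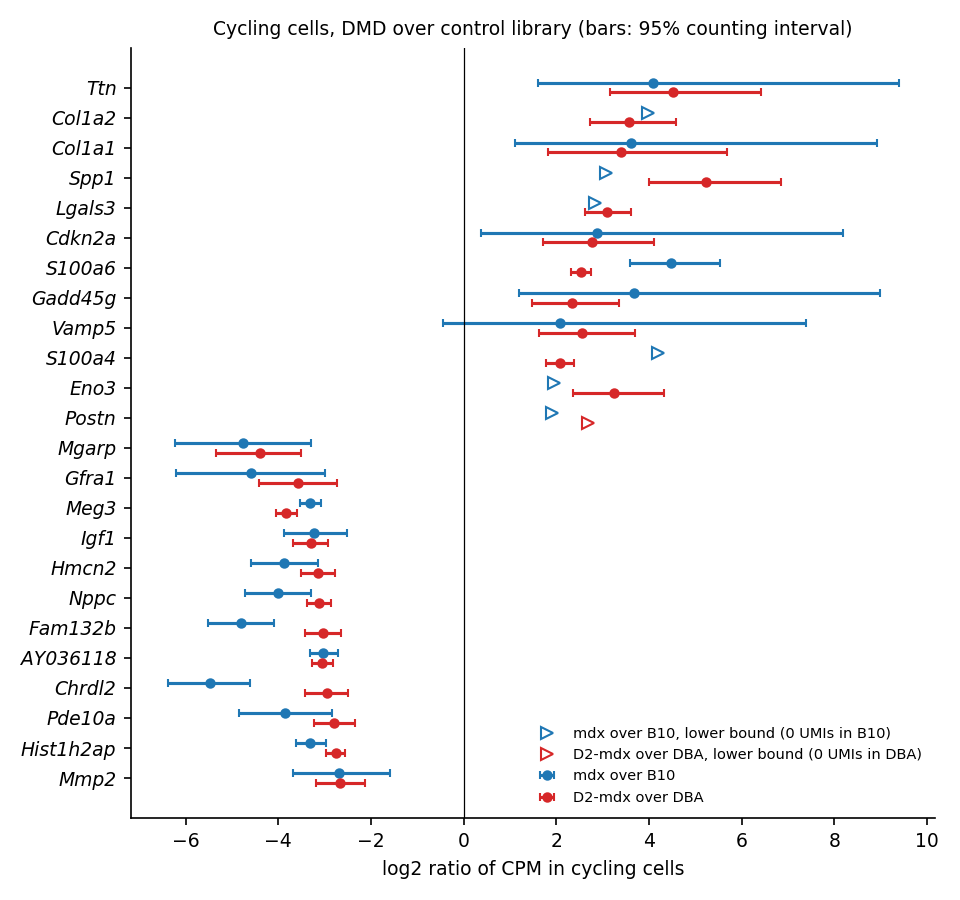
Log2 ratio of CPM in cycling cells, mdx over B10 (blue) and D2-mdx over DBA (red), for the 12 genes highest and the 12 lowest in both; bars are 95% counting intervals and open triangles lower bounds where the control had 0 UMIs. The blue intervals are wide because B10 has 4 cells, and that of Vamp5 reaches below 0; for S100a6 the ratios are 4.48 and 2.53, and for Meg3 -3.31 and -3.83.

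The genes lower in both dystrophic libraries included several of resting satellite cells. Meg3, an imprinted long non-coding RNA, stood at 3427 (B10), 345 (mdx), 1079.5 (DBA) and 75.9 CPM (D2-mdx), a log2 ratio of -3.31 (-3.53 to -3.08) in mdx and -3.83 (-4.06 to -3.60) in D2-mdx over the control, and it was lower than the control in non-cycling cells too, at 4242, 887, 2189 and 355 CPM. Igf1, a growth factor of muscle, had 401, 42.9, 332 and 33.6 CPM, and Nppc 445, 27.5, 648 and 74.4. Gfra1, a receptor of GDNF, had 8 UMIs in the 101 mdx cells and 23 in the 217 D2-mdx cells, beside 8 in 4 and 30 in 20 cells of the controls. Of 26 surface and quiescence genes over the minimum, 13 were 2-fold lower and 1, Igfbp4 with a single UMI in B10, higher in mdx than in B10, and 15 lower and none higher in D2-mdx than in DBA, with a median log2 ratio of -1.0 and -1.16. Of all genes 17.0% and 7.99% were lower. Genes high only in the healthy libraries could pass the minimum through those libraries, so the filter bears on this count too. Cd34, a surface antigen of resting satellite cells, stood at 178, 16.5, 147 and 55.6 CPM, a log2 ratio of -3.43 (-4.46 to -2.31) in mdx and -1.41 (-1.84 to -0.95) in D2-mdx over the control. For Notch1, a receptor that holds satellite cells at rest, the ratios were -1.76 (-2.49 to -0.93) and -1.57 (-1.97 to -1.16), and for Fgfr1, a receptor of fibroblast growth factors, -1.52 (-2.14 to -0.82) and -1.73 (-2.05 to -1.40). Each of these ratios was further from 0 in cycling than in non-cycling cells, where Cd34 had -1.27 and -0.84, Notch1 -0.77 and -0.59 and Fgfr1 -0.82 and -0.80; that difference was not tested. Pax7 itself had -1.04 (-1.63 to -0.39) and -0.70 (-1.03 to -0.36). The other leaders of this ranking were Mgarp, Hmcn2, Fam132b, AY036118, Chrdl2, Pde10a, Hist1h2ap and Mmp2.

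Dystroglycan, the partner of dystrophin at the membrane, was also lower. Dag1 stood at 2166 (B10), 931 (mdx), 1856 (DBA) and 742 CPM (D2-mdx) in cycling cells and at 1502, 1417, 1538 and 1546 CPM in non-cycling cells, with a log2 ratio of -1.22 (-1.46 to -0.96) and -1.32 (-1.44 to -1.20) in cycling cells and of -0.08 and 0.01 in non-cycling cells. Dag1 was thus near its control in the non-cycling cells of both dystrophic libraries and lower in the cycling ones, where Sgcb, a sarcoglycan, had 89.0, 51.4, 89.5 and 58.8 CPM and Utrn (utrophin), a homologue of dystrophin, 148, 91.2, 76.4 and 67.5. Of 5 dystrophin complex genes over the minimum 2, Dmd and Dag1, were 2-fold lower in both comparisons. Dmd passed the minimum only through the healthy libraries, where it is higher. Of all genes 10.6% were higher and 17.0% lower in mdx than in B10, and 4.21% and 7.99% in D2-mdx than in DBA. Among S-phase genes 22 of 38 were 2-fold lower in mdx than in B10 and none higher, but only 1 of 38, Pcna, in D2-mdx than in DBA, and the median log2 ratio was -1.21 and -0.57. S-phase genes could pass the minimum through the 4 cells of B10, so the filter bears on the count for mdx. Pcna had -2.31 (-2.85 to -1.73) and -1.61 (-1.94 to -1.28). G2/M genes were near these shares, with 7 of 51 higher and 11 lower in mdx than in B10, and 1 (Pttg1) and 5, among them Hjurp and Ncapd2, in D2-mdx than in DBA, around a median log2 ratio of -0.22 and -0.26 that the scaling by TMM would carry across 0 for mdx over B10. Heat shock genes were higher in 7 of 12 in mdx than in B10 and in 0 of 12 in D2-mdx than in DBA, a difference that was not tested and rests on the 4 cells of B10.

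Metabolic and regulatory genes are given beside the shares of all genes, 10.6% higher and 17.0% lower for mdx over B10 and 4.21% and 7.99% for D2-mdx over DBA. Of 10 glycolytic genes 4 (Tpi1, Gpi1, Ldha and Eno3) were 2-fold higher and 1 (Hk1) lower in mdx than in B10, and 4 (Tpi1, Pkm, Eno3 and Pgam1) higher and none lower in D2-mdx than in DBA, around medians of 0.910 and 0.807. Ldha (lactate dehydrogenase A) stood at 104, 407, 355 and 627 CPM. Of 24 genes of oxidative phosphorylation 4 were higher in mdx, not far from the share of all genes, and 3 in D2-mdx, with none lower, Cox5a, a subunit of cytochrome oxidase, being 2-fold higher in both, at 282, 582, 434 and 1146 CPM. Of 6 targets of p53 over the minimum, too few to set against those shares, Phlda3, an inhibitor of Akt signalling, was higher in both comparisons, at 44.5, 189, 47.4 and 147 CPM, and Plk2 in D2-mdx over DBA alone. Among the 15 myogenic factor genes, Msc (musculin, a repressor of the myogenic factors) was lower in both, at 371, 127, 247 and 58.5 CPM, and lower again in D2-mdx than in mdx. Megf10, a receptor of satellite cells, was lower too, at 89.0, 31.8, 89.5 and 31.0 CPM, while Igfbp5, which binds insulin-like growth factors, and Id2, an inhibitor of differentiation, were higher, at 29.7, 239, 79.0 and 215 and 14.8, 210.0, 71.1 and 154 CPM. The B10 values of Igfbp5 and Id2 are 2 UMIs and 1 UMI, and the log2 ratios for mdx over B10 were 3.01 (1.15 to 6.06) and 3.82 (1.34 to 9.13). Cdkn2c (p18), an inhibitor of Cdk4 and Cdk6, was lower in both comparisons, at 134, 56.3, 124 and 51.0 CPM. No gene of the interferon or the cell polarity list passed the minimum.

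Between the dystrophic libraries the cycling cells differed in few genes. Of the leading genes, Cdkn1c was lower in D2-mdx with a log2 ratio of -1.71 (-1.93 to -1.49) over mdx, Postn with -1.72 (-2.0 to -1.44), Ptn (pleiotrophin, a growth factor) with -1.93 (-2.18 to -1.67), Meg3 with -2.19 (-2.40 to -1.97) and Capn6 with -1.70 (-1.94 to -1.46). Non-cycling cells differed too, with Cdkn1c at 463 (mdx) and 161 CPM (D2-mdx), Meg3 at 887 and 355, and Postn less, at 132 and 102. In healthy cycling cells Meg3 was also lower in DBA (1079.5 CPM) than in B10 (3427), while Cdkn1c and Capn6 were higher in DBA. Above the upper limit on genes, cycling cells of mdx and D2-mdx were nearly level for Meg3 and less than 2-fold apart for Cdkn1c. Whether these differences are particular to cycling cells was not tested. Of 15 matrix and DMD genes over the minimum 5 (Postn, Col1a2, Mest, Islr and Col1a1) were lower and none higher in D2-mdx than in mdx, beside 1.17% lower and 0.783% higher of all genes. None of 38 S-phase and 2 of 51 G2/M genes were 2-fold apart, both lower in D2-mdx, Hjurp, which loads the centromeric histone, at 141 and 47.2 CPM and Ncapd2, a condensin subunit, at 63.7 and 29.8. Mki67 (367 and 368 CPM) and Top2a (344 and 379 CPM) were nearly level. The higher side was led by S100a9 and S100a8, which mark neutrophils, and by Gm10709, Gm10260, Tpm3-rs7, Gm8797, Gm8730 and PISD. Rpl29, which led the lower side, encodes a ribosomal protein that has many processed copies, and gene models with Gm names can be such copies, so that reads may be split among them. Gm8730 and Rpl29 stood apart in the healthy libraries as well, with 74.2 CPM in B10 and 1335 in DBA for Gm8730, and 1602 and 189.6 for Rpl29. Their values are uncertain, as are those of Hist1h2ak and Gm10036.

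Markers of other cell types were looked for in the cycling cells. The 8 white blood cell genes held 7724 UMIs in D2-mdx, 2237 CPM in sum, against 192 CPM in mdx, 60.6 in DBA and 0 in B10, and 678 CPM in the non-cycling cells of D2-mdx. They sat in few cells, since 2 cells held 6740 UMIs (87.3%) and the sum was 61.9 CPM without the 15 cells of 5 or more; S100a9 was the most abundant, and Ptprc (Cd45), against which the sort was gated, had 13 UMIs in 5 cells. With those cells left out, the log2 ratio of S100a9 for D2-mdx over mdx was at least 1.25, in place of at least 9.07, from a floor of 3 UMIs in mdx, which had none. Haemoglobin genes, a sign of free RNA from red cells, were lower in cycling than in non-cycling cells, in sum 25.7 against 824 CPM in mdx and 68.9 against 961 in D2-mdx, with Hbb-bs the most abundant. The 4 smooth muscle genes summed to 2314, 648, 2054 and 628 CPM in cycling and 414, 582, 699 and 974 in non-cycling cells, and were higher in the healthy than in the dystrophic cycling cells. Most of it was Acta2 (smooth muscle actin, which myoblasts can also make), at 1587, 596, 1303 and 487 CPM, with Pln at 0 in all 4 libraries and Myh11 at 0 in B10. Of 8 fibroblast and tendon genes Dpt led, the sums being 401, 77.7, 574 and 233 CPM against 591, 296, 789.8 and 611 in non-cycling cells, with Pdgfra and Tnmd at 0 in B10, mdx and DBA. Pericyte genes summed to 59.3, 40.4, 26.3 and 148 CPM, led by Rgs5, endothelial genes to 0, 152, 2.63 and 47.2 and glial genes to 0, 81.4, 10.5 and 44.3, each below its sum in the non-cycling cells of mdx, DBA and D2-mdx. Genes of mature fibres summed to 44.5, 45.9, 10.5 and 67.2 CPM. The part of these transcripts in the differences between strains was not tested, except that leaving out the cells with white blood transcripts moved no count of genes by over 1.5 times.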

How the data were processed

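Single-cell libraries (10X Genomics 3′ chemistry) of sorted satellite cells from 4 mouse strains were used, 1 library of 2 pooled mice each. The authors deposited counts of UMIs per gene and barcode, made with Cell Ranger 3.0.1 on mm10; how barcodes were called was not given in the sources used here. Limits on genes and mitochondrial UMIs are those of the study. UMIs were summed per library and class and scaled to CPM, and genes were called at a 2-fold difference; ratios carry exact intervals from the binomial share of a pair of counts, levels Poisson intervals. A control with 0 UMIs was set to a floor of 3. No replicate exists, so no test was made. Doublets were scored with Scrublet (scanpy 1.11.5), and the highest scores were marked up to a number preset from the cell count of the library. Marked cells were kept, and removed as an alternative. Thinning drew 3000 UMIs a cell. Named genes were those of the rule, the gene lists, and the 12 highest and lowest of each ranking (8 for D2-mdx over mdx) by the ratio nearest 0. The members and lists were chosen with earlier results of these data known. Other scalings used edgeR 4.0.16 and DESeq2 1.42.0; Python 3.11.15, numpy 2.4.6, scipy 1.17.1, pandas 2.3.3, matplotlib 3.10.9 and R 4.3.3 served throughout. The interval code was tested on simulated data.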

Additional observations from a re-analysis of the deposited data

Results flagged for a closer look

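Cells with the cycling genes also stood outside the limits: 86 cells of mdx, 21 of DBA and 280 of D2-mdx had more than 5000 genes. Among cells with 3 or more Myog UMIs, 5 in mdx and 30 in D2-mdx carried 3 or more of the 8 proliferation genes. Below 2 UMIs of Pax7, Myf5 and Myod1 there were 30 such cells in mdx (1.85% of 1620) and 72 in D2-mdx (4.28% of 1683), beside 1 of 151 in B10 and 3 of 513 in DBA; which cell types these hold was not tested. White blood cell genes gave 7724 UMIs in the cycling cells of D2-mdx, where none was counted in B10.

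In cycling cells 2 genes were 2-fold higher in mdx than in B10 and 2-fold lower in D2-mdx than in DBA. Capn6, a calpain-like protein, had log2 ratios of 1.90 (0.54 to 3.79) and -1.21 (-1.62 to -0.77), and Klf9, a transcription factor that glucocorticoids induce, 2.60 (0.73 to 5.65) and -1.13 (-1.59 to -0.66). Another 2 genes went the other way, Daam1 with -1.38 (-2.32 to -0.27) and 1.31 (0.24 to 2.65), and PISD with -3.38 (-4.40 to -2.27) and 1.67 (0.77 to 2.75). The difference between the comparisons was not tested for any of them, and B10 held 4 UMIs of Capn6 and 2 of Klf9.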

How the results depend on the processing

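Of 827 values for 99 named log2 ratios under 9 alternatives, 0 took the opposite direction and 72 moved by over 0.5. The named genes led their rankings by distance from 0, so a change of direction was unlikely beforehand. Ratios between strains in cycling cells could not move under the alternative that widened the non-cycling class. Without the upper limit on genes, 43 of the 99 moved by over 0.5. Counts of 2-fold genes are given as higher and lower, and TMM and DESeq2 sizes turned a majority of lower genes into a majority of higher ones in the comparisons with the controls. With TMM sizes, 117 genes were lower in cycling than in non-cycling cells of all libraries, mdx over B10 had 618 and 261, and D2-mdx over DBA 198 higher. DESeq2 size factors gave 634 and 252, and 214 and 161. A minimum of 100 CPM left 87 and 45 genes for cycling over non-cycling cells, 155 and 198 for mdx against B10, 63 and 111 for D2-mdx against DBA and 13 and 21 between the dystrophic libraries. With no minimum these were 420 and 119, 658 and 2314, 977 and 1836, and 784 and 904. Without the upper limit on genes 147 genes were lower in cycling cells, and without B10, an alternative chosen after seeing the data, 128. Asking for the interval on 1 side left 176 genes higher in mdx than in B10. The share of cycling cells was 3.57% (mdx), 1.38% (DBA) and 10.3% (D2-mdx) without the upper limit, 1.58% (mdx) and 4.17% (D2-mdx) with 4 or more of the 8 genes, 0%, 0.505%, 0.249% and 1.82% after thinning, and 1.51% (mdx) and 3.59% (D2-mdx) of all cells. Asking for 4 or more genes left out 1 of the 4 cycling cells of B10, 21 of 101 of mdx, 7 of 20 of DBA and 35 of 217 of D2-mdx. The fold between D2-mdx and DBA was thus larger under that limit. The S to G2/M ratio was 1.155, 0.629, 0.477 and 0.616 without the upper limit, which puts DBA below D2-mdx, 0.602 (DBA) and 0.504 (D2-mdx) after thinning, and 0.532 in D2-mdx without the cells of white blood transcripts, which was chosen after seeing the data. The cause of the moves was not tested. No paired analysis was possible because each strain is 1 library, and for the same reason no replicate could be left out. The B10 values rest on 4 cycling cells, and levels without a single cell were taken after seeing the data.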

Other observations

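The cycling cells of more than 5000 genes, which number 6 (B10), 86 (mdx), 21 (DBA) and 280 (D2-mdx), gave levels for the genes described above, in the same order of libraries. Dmd stood at 169.8, 9.70, 92.0 and 11.6 CPM in them and Dag1 at 1608, 365, 718 and 280.4, both lower in either dystrophic library than in its control. S100a6 had 26.5, 3807, 1011 and 2864 CPM and Spp1 0, 683, 272 and 1137. Meg3 was at 1464, 23.5, 394 and 25.3 CPM, and Cdkn1c at 69.0, 52.4, 10.1 and 40.2, with mdx below B10 and above DBA and D2-mdx. Myod1 had 297, 234, 199 and 262 CPM and Pax7 313, 73.0, 166 and 60.5.

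Cells with 3 or more Myog UMIs, whether cycling or not, had a Cdkn1c level in CPM of 7612 in mdx and 3944 in D2-mdx, and Cdkn1a, the inhibitor tied to cell cycle exit in myoblasts, stood at 369.7 in mdx and 514 in D2-mdx. Their Mki67 level in CPM was 10.0 in mdx and 22.5 in D2-mdx, below that of the cycling cells in both libraries. These values come from 200 cells in mdx and 226 in D2-mdx, and none was tested.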
